A study of Mus musculus with 8 samples.

Results

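The cytochrome P450 genes of families 1 to 3 were followed in liver after a pulse of growth hormone (GH). Every gene whose symbol is Cyp followed by 1, 2 or 3, a subfamily letter and a number was taken, which gave 58 of the 24197 genes in the deposited table. They fall into 16 subfamilies, of which Cyp2c with 15 members, Cyp2d with 9, Cyp2j and Cyp3a with 7 each, Cyp2b with 5 and Cyp2a with 4 hold several genes, each subfamily on 1 chromosome. P450 enzymes are heme proteins of the endoplasmic reticulum that insert an oxygen atom into their substrates with electrons from the reductase encoded by Por. Families 1 to 3 clear drugs, plant compounds, steroids and fatty acids, and hepatocytes around the central vein carry most of them. Several are known for levels that differ between male and female mouse liver, where the sexes differ in the temporal pattern of pituitary GH, which reaches the nucleus through the transcription factor STAT5b.

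The mice were hypophysectomized male CD-1 (ICR) mice, whose pituitary the supplier removed at 7 weeks of age and whose age is given as 11 weeks. The 3 treated groups received 1 pulse of recombinant rat GH into the peritoneum, 125 ng for each g of the animal, were killed 30, 90 or 240 min later, and are called GH 30 min, GH 90 min and GH 240 min. The control group, called Hypox, carried the same surgery and received no GH. The labels describe its mice as untreated in one place and as given vehicle in another. Each of the 4 groups has 2 libraries, made by pooling individual RNA samples, so that p-values measure the spread between pools and individual animals cannot be seen. The animals lack all pituitary hormones and not GH alone, and every time was set against the same Hypox libraries, so that the 3 comparisons share their control. The name prefix of 1 Hypox library differs from that of the other libraries, and which of the recovered Hypox libraries it is was not known.

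The deposited values are group means, from which whole reads per library were recovered by arithmetic, and the libraries of a group are called the deeper and the shallower one. They held 15935303 to 34452570 mapped reads, of which 25.1% to 26.6% were exonic and 15% to 17.8% intronic reads of genes. Levels per library are read counts scaled for the mapped total of the library (counts per mapped total, CPM) and then between libraries, and levels compared between genes are per length (FPKM). A member was tested with limma if at least 2 libraries had 10 reads or more, which held for 43 members in exons and 40 in introns, and it is called changed at a Benjamini-Hochberg adjusted p under 0.05 over all genes tested. Each log2 fold change is given ± its standard error (SE) from limma. Intronic reads come largely from unspliced transcripts, so they follow recent synthesis more closely than exonic reads, which come mostly from mature mRNA.

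The libraries carried liver RNA. Summed over 6 hepatocyte markers, the exonic level was 23800 to 23830 CPM in Hypox, 22130 to 22400 CPM at 30 min, 23140 to 23160 CPM at 90 min and 17190 to 18360 CPM at 240 min. Markers of lung, kidney and intestine, which carry P450 genes of their own, summed to at most 2.52 CPM in any library. In bulk tissue, fewer cells of a type and less RNA per cell cannot be told apart. The pools of the 30 min group differed more in these genes than other pools did. The median absolute log2 difference between its libraries was 0.72 over the 40 members tested in introns and 0.26 over all genes, whereas in the Hypox group it was 0.28 over the members and 0.23 over all genes.

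The members differed widely in level. Averaged over the 4 groups, 6 members lay above 100 FPKM, 23 between 10 and 100 FPKM, 5 between 1 and 10 FPKM and 21 below 1 FPKM, and 3 (Cyp2b23, Cyp2c66 and Cyp2j12) were listed at 0 in exons. The highest were Cyp2e1, which oxidises ethanol, at 860 FPKM, Cyp3a11, a drug and steroid hydroxylase, at 664 FPKM, and Cyp2c29, an arachidonic acid epoxygenase, at 499 FPKM. Cyp2d26 followed at 151 FPKM, Cyp3a25 at 138 FPKM and Cyp2c70, which makes the muricholic acids of mouse bile, at 102 FPKM. The order of neighbours was not fixed, since Cyp2c70 was at 77.0 FPKM in Hypox, below Cyp2b9 at 120.5 and Cyp2c37 at 82.2 FPKM, and stood at 152 FPKM at 240 min, above both. The 3 genes with most reads took 56.7% to 64.4% of the exonic reads of all members, and the members together took 2.07% to 2.56% of the exonic reads in genes.

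**Figure D1:**
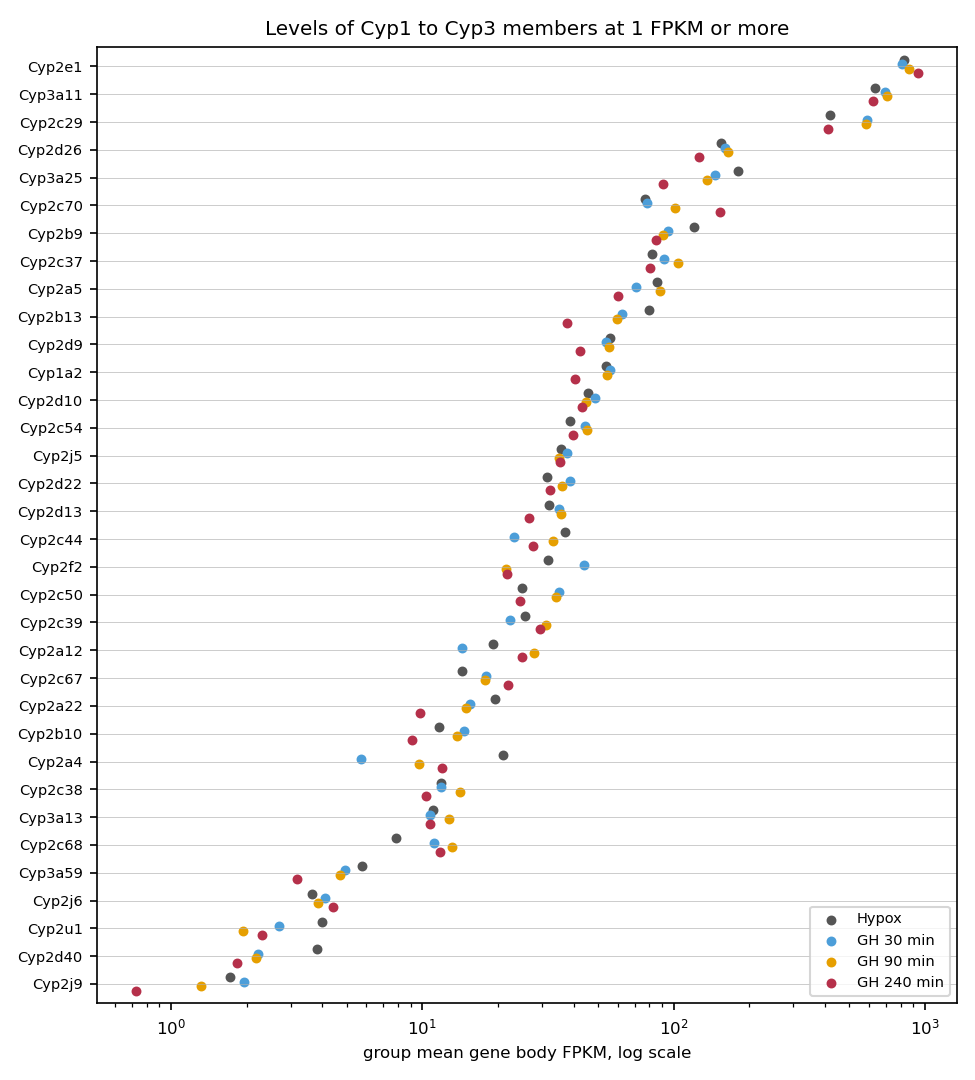
Group mean gene body FPKM (log axis) of the 34 members with at least 1 FPKM over the 4 groups, ordered by level, with 1 point a group. Cyp2e1, Cyp3a11 and Cyp2c29 stand at the top, and the 240 min point lies left of the Hypox point for Cyp3a25 and Cyp2b13 and right of it for Cyp2c70.

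By limma, lower calls came earlier in introns than in exons, and they took in a minority of the members at each time. In exonic reads, limma called 0 of 43 members at 30 min and 0 at 90 min, where 0.0759% and 0.797% of all genes were called. At an unadjusted p under 0.05 there were 8 members at 30 min and 10 at 90 min, and limma-voom also called 0 at both times. At 240 min 9 members were called, where 11.2% of all genes were called, of which 2 were higher (5.71% of all genes) and 7 lower (5.53%). In intronic reads 3 of 40 members were lower at 30 min (2.41% of all genes called in either direction), 12 were lower and 1 higher at 90 min (7.56%), and 10 were lower at 240 min (11.2%). For lower calls alone, the share of all genes was 1.02% at 30 min, 4.3% at 90 min and 6.23% at 240 min, against 7.5%, 30.0% and 25% of the members, and 3.26% of all genes were called higher at 90 min. The median intronic log2 fold change of the members was -0.38, -0.93 and -0.85 at the 3 times, and that of all genes -0.02, -0.02 and -0.01. Summed over all 58 members, the intronic level was 2544 and 2422 CPM in the Hypox libraries, 1767 and 1739 CPM at 30 min, 1289 and 1675 CPM at 90 min and 1292 and 1554 CPM at 240 min, so that each treated library lay below both Hypox libraries. A few genes weigh heavily in this sum, since the 3 with most reads took 45.4% to 62.2% of the members' intronic reads in a library. In exons the medians of the members were 0.03, -0.01 and -0.36.

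These counts depended on single libraries. The exonic count at 240 min was 4 without the deeper and 2 without the shallower Hypox library. The intronic count at 30 min was 9 without the deeper 30 min library, and the one at 240 min was 6 without the deeper Hypox library, 3 without the shallower one and 4 without the deeper 240 min library.

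**Figure D2:**
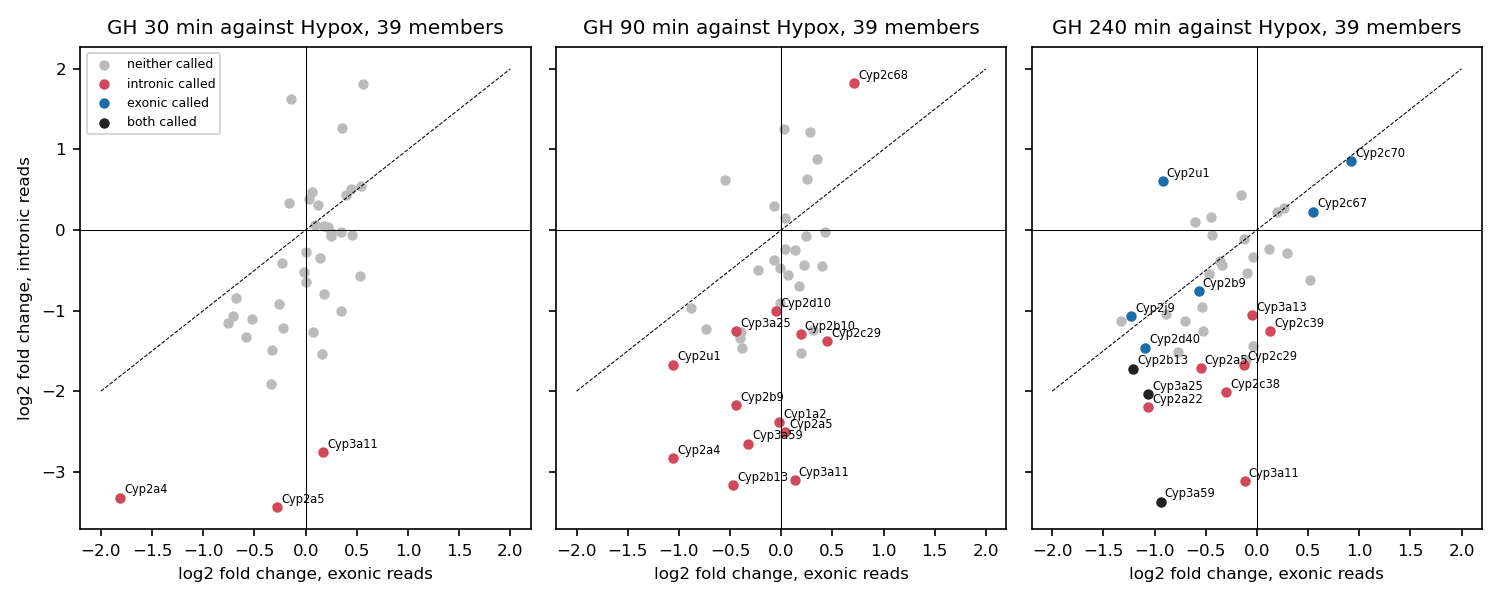
Log2 fold change of intronic reads against that of exonic reads for the 39 members tested in both, at 30, 90 and 240 min against Hypox, coloured by which of the changes was called, with the dashed line marking equal change. At 30 and 90 min the called members lie below 0 on the intronic axis, apart from Cyp2c68 at 90 min, and exonic calls appear at 240 min.

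Cyp3a11, the most abundant Cyp3a gene and a classical target of the pregnane X receptor, lost most of its intronic reads within 30 min while its exonic level was not called changed. Its intronic level was 171 and 151 CPM in the Hypox libraries, 31.2 and 18 CPM at 30 min, 17.8 and 19.7 CPM at 90 min and 21 and 16.2 CPM at 240 min. All 6 treated libraries lay far below both Hypox libraries. The log2 fold change was -2.76 ± 0.23 at 30 min (6.76-fold lower, adjusted p = 0.000191), -3.10 ± 0.23 at 90 min (8.56-fold lower, adjusted p = 7.24e-05) and -3.12 ± 0.23 at 240 min (8.68-fold lower, adjusted p = 0.000181). The exonic level was 1343 and 1279 CPM in Hypox, 1498 and 1459 CPM at 30 min, 1357 and 1523 CPM at 90 min and 1434 and 1015 CPM at 240 min. Its exonic log2 fold change was 0.17 ± 0.18, 0.13 ± 0.18 and -0.12 ± 0.18 at the 3 times (adjusted p = 0.902, 0.897 and 0.721). The 3 intronic calls held with each of the 4 compared libraries left out in turn. Cyp3a11 lies on mm9 chromosome 5 from 146666182 to 146691430.

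Cyp2a5, the coumarin 7-hydroxylase of mouse liver, and its near copy Cyp2a4, a steroid 15-alpha-hydroxylase, fell in introns as early. Cyp2a5 had 11.9 and 12.3 CPM of intronic reads in Hypox, 1.40 and 0.735 CPM at 30 min, 1.92 and 2.15 CPM at 90 min and 4.33 and 3.04 CPM at 240 min. The level was lowest at 30 min and both later times lay between it and Hypox. The log2 fold change was -3.44 ± 0.28 at 30 min (10.9-fold lower, adjusted p = 0.000157), -2.51 ± 0.28 at 90 min (adjusted p = 0.000715) and -1.71 ± 0.28 at 240 min (adjusted p = 0.00567, but 0.0686 without the shallower Hypox library). Cyp2a4 had 5.98 and 3.78 CPM in Hypox, 0.378 and 0.396 CPM at 30 min, 0.397 and 0.836 CPM at 90 min and 2.17 and 2.36 CPM at 240 min. Cyp2a4 had 214 and 120 intronic reads in Hypox, but 10 and 7 at 30 min and 13 and 14 at 90 min. Its intronic reads fell by 3.32 ± 0.34 at 30 min (9.98-fold, adjusted p = 0.000727) and by 2.83 ± 0.34 at 90 min (adjusted p = 0.00109) on the log2 scale, and at 240 min they were 1.04 ± 0.34 lower without passing (adjusted p = 0.0768). In exons Cyp2a4 had 49.1 and 22.8 CPM in Hypox and 13.4 and 6.73 CPM at 30 min, and the log2 fold change of -1.81 ± 0.46 did not pass (adjusted p = 0.375). The authors' deposited table calls it lower at 30 min in the gene body (3.55-fold, adjusted p = 0.000354). Of the other Cyp2a genes, Cyp2a22 was called lower in introns at 240 min (-2.20 ± 0.56, adjusted p = 0.0313), where its Hypox libraries had 4.33 and 19.9 CPM and its 240 min libraries 2.53 and 1.5 CPM, and the call was lost without the shallower Hypox library or either 240 min library (adjusted p up to 0.227). Cyp2a12, which had 21.6 FPKM, was called in no comparison.

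The promoters of these 3 genes are shown because their intronic reads were the first to fall, and because all 3 hold the letters CAAAGTCC, which are in capitals. The stretches are the 250 bases before the annotated start, 5′ to 3′ in the gene's direction, from RefSeq in build GRCm38.p6, at chr5:145879855-145880104 (- strand), chr7:26835089-26835338 (+ strand) and chr7:26306942-26307191 (+ strand).
Cyp3a11: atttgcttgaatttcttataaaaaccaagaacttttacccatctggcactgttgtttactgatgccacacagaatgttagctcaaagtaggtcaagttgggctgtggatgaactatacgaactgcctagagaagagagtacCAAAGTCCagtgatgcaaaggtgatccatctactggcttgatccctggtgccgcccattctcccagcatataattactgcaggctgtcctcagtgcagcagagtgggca
Cyp2a5: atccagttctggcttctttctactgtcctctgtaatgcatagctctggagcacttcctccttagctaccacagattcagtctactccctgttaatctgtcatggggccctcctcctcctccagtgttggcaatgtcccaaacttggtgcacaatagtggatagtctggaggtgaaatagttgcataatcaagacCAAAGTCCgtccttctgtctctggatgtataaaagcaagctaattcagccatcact
Cyp2a4: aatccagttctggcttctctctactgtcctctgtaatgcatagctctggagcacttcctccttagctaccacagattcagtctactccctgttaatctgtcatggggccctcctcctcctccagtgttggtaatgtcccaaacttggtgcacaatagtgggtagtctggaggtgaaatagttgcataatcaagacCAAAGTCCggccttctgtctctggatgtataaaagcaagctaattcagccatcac
The letters CAAAGTCC are a pattern of the hepatocyte nuclear factor HNF4, chosen with earlier results known. On either strand they occurred in 11 of the 50 members with a promoter in the table (22%) and in 1.2% of all 32851 promoters of the same length. The 11 were Cyp2a4, Cyp2a5, Cyp2c40, Cyp2c65, Cyp2c66, Cyp2c67, Cyp2c68, Cyp2c69, Cyp2c70, Cyp3a11 and Cyp3a16, many of which are close copies that share bases by descent. They included members that fell in introns and members that rose. The letters TTCNNNGAA, a STAT5-type pattern searched on both strands, were found in 2 member promoters (4.0%) against 7.02% of all, and ATCAAT, a pattern of the Onecut factor HNF6, in 9 (18%) against 6.72%. The promoters of Cyp2a5 and Cyp2a4 were identical at 98.4% of 249 aligned bases.

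Cyp3a25 and Cyp3a59, neighbours of Cyp3a11, were called lower in introns at 90 and 240 min and in exons at 240 min. Cyp3a25 had 362 and 479 CPM of intronic reads in Hypox, 250 and 195 CPM at 30 min, 157 and 197 CPM at 90 min and 90.0 and 114 CPM at 240 min. The Hypox libraries were the highest and the 240 min libraries the lowest, with no overlap. Its intronic reads were 1.25 ± 0.23 lower on the log2 scale at 90 min (adjusted p = 0.008) and fell by 2.04 ± 0.23 at 240 min (4.12-fold, adjusted p = 0.00092), whereas the value at 30 min was -0.92 ± 0.23 (adjusted p = 0.0689). The call at 90 min was lost without the shallower Hypox or the deeper 90 min library (adjusted p up to 0.0829). The exonic level was 322 and 410 CPM in Hypox, 304 and 304 CPM at 30 min, 250 and 286 CPM at 90 min and 172 and 177 CPM at 240 min. In exons it was called lower at 240 min (-1.06 ± 0.14, 2.08-fold, adjusted p = 0.00232), a call that held with each library left out.

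Cyp3a59 had 11.3 and 19.6 CPM of intronic reads in Hypox, 8.00 and 5.09 CPM at 30 min, 2.38 and 2.21 CPM at 90 min and 1.17 and 1.54 CPM at 240 min. Each group lay wholly below the one before it. The log2 fold change was -2.65 ± 0.29 at 90 min (6.27-fold lower, adjusted p = 0.000586) and -3.37 ± 0.29 at 240 min (10.4-fold lower, adjusted p = 0.000258), and it was -1.21 ± 0.29 at 30 min (adjusted p = 0.0565). In exons it had 11.2 and 12.1 CPM in Hypox, 12.3 and 8.06 CPM at 30 min, 9.75 and 8.86 CPM at 90 min and 6.94 and 5.22 CPM at 240 min. The 30 min libraries lay on either side of Hypox, and the 240 min libraries lay below all others, with a log2 fold change of -0.94 ± 0.20 (adjusted p = 0.0174). That call was lost without either Hypox library or the shallower 240 min library (adjusted p up to 0.105).

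Cyp3a13 was called late, and in introns. It had 27.4 and 28.5 CPM of intronic reads at 240 min against 65.3 and 52.2 CPM in Hypox (-1.06 ± 0.26, adjusted p = 0.0267), and the call was lost with any 1 of the 4 libraries left out (adjusted p = 0.102 to 0.139). Its exonic log2 fold change at 240 min was -0.05 ± 0.33 (adjusted p = 0.943). Cyp3a44, a female-biased gene in intact mice, had 67 exonic reads over all 8 libraries and had 0.0736 and 1.11 CPM in the 30 min libraries, the widest exonic gap between pools of any member tested. Cyp3a16 and Cyp3a57 had 50 and 19 exonic reads in all and were not tested. The 250 bases before the start of Cyp3a25, at chr5:146009619-146009868 (- strand), and of Cyp3a59, at chr5:146079008-146079257 (+ strand), are shown as the pair that fell together, from RefSeq in GRCm38.p6, with none of the 3 patterns to mark.
Cyp3a25: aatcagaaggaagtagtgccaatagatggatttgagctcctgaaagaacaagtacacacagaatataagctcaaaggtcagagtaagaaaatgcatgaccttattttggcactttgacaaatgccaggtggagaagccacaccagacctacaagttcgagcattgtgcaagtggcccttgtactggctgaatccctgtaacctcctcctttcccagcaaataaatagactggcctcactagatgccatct
Cyp3a59: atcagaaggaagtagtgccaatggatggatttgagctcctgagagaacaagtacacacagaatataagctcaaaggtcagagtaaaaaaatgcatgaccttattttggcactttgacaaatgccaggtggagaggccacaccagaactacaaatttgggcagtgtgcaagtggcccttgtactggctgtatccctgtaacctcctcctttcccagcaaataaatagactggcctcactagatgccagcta
They were identical at 95.6% of 249 aligned bases, while Cyp3a11 and Cyp3a25 were identical at 68.4% of 215 aligned bases.

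**Figure D3:**
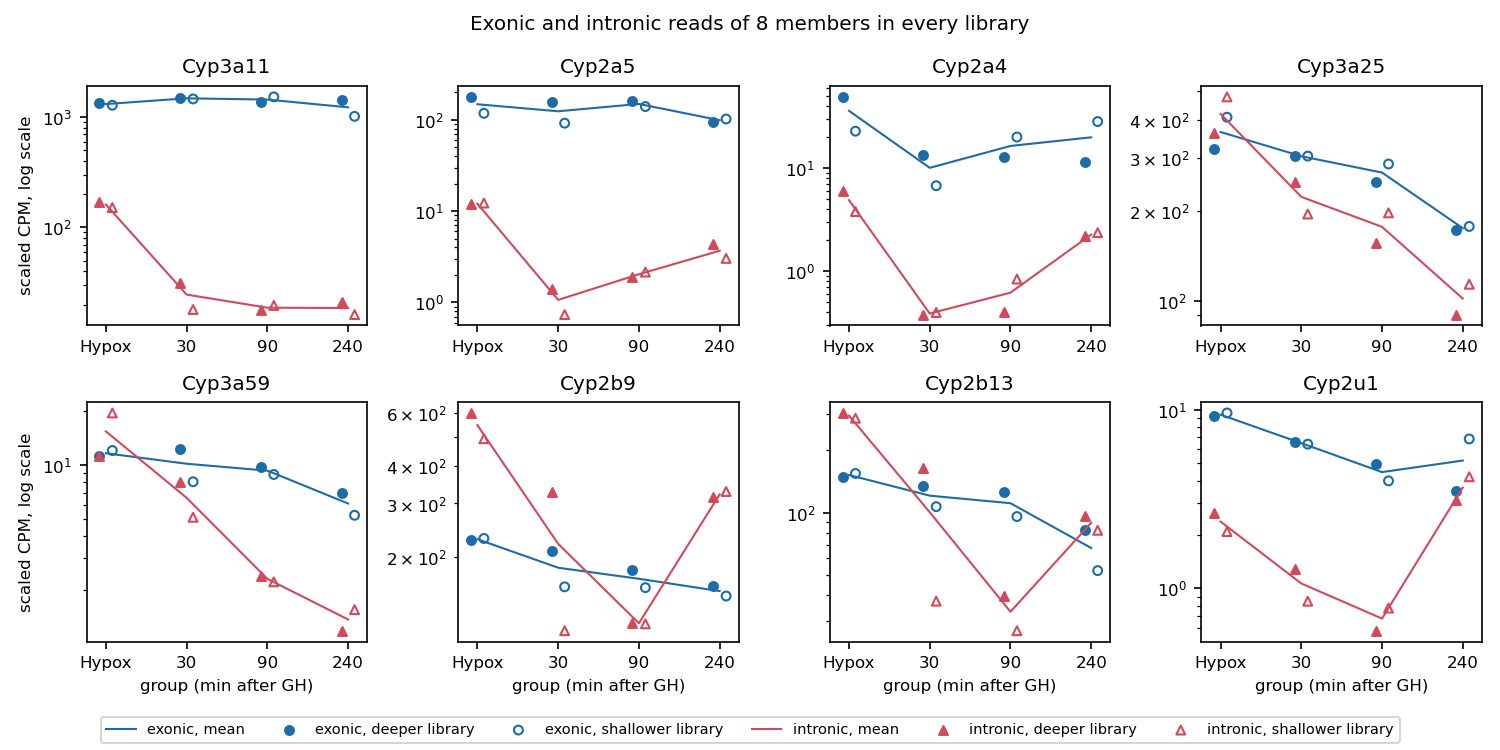
Exonic (circles) and intronic (triangles) level of 8 members in each of the 8 libraries, in scaled CPM on a log axis that differs between panels, with filled and open symbols for the deeper and the shallower library and lines through the group means. The intronic triangles of Cyp3a11, Cyp2a5 and Cyp2a4 drop by 30 min, those of Cyp3a25 and Cyp3a59 decline to 240 min, and the intronic group means of Cyp2b9 and Cyp2u1 are lowest at 90 min.

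Cyp2b9 and Cyp2b13, steroid hydroxylases that are female-biased in intact mice, had their lowest intronic group means at 90 min. Both carried more intronic than exonic CPM in Hypox, as did Cyp3a25, Cyp3a13, Cyp2c70 and Cyp2c68 among others. CPM is not per length, and per length Cyp2b9 in Hypox was at 15.5 FPKM in introns and 120.5 FPKM in exons. Cyp2b9 had 599 and 492 CPM of intronic reads in Hypox, 327 and 114 CPM at 30 min, 121 and 120 CPM at 90 min and 314 and 329 CPM at 240 min. The 90 min libraries were alike and far below Hypox, and the 30 min libraries differed from each other. The log2 fold change was -2.17 ± 0.38 at 90 min (4.51-fold lower, adjusted p = 0.00603) and the values at 30 and 240 min, -1.49 ± 0.38 and -0.76 ± 0.38, did not pass (adjusted p = 0.0725 and 0.226). From 90 to 240 min the intronic level rose by 1.42 ± 0.38 (adjusted p = 0.0352), where 11.6% of all genes were called between these times. That call was lost with any 1 library left out (adjusted p = 0.134 to 0.152). Cyp2b13 had 303 and 286 CPM in Hypox, 163 and 37.3 CPM at 30 min, 39.5 and 26.9 CPM at 90 min and 96.4 and 82.1 CPM at 240 min. It was lower by 3.17 ± 0.50 at 90 min (9.01-fold, adjusted p = 0.00356) and by 1.72 ± 0.50 at 240 min (adjusted p = 0.0484, lost with any 1 library left out, adjusted p = 0.141 to 0.221). Its intronic change from 90 to 240 min was not called. In exons Cyp2b13 fell by 1.21 ± 0.21 at 240 min (2.31-fold, adjusted p = 0.00664), with 82.4 and 52.4 CPM against 149 and 155 CPM in Hypox, a call lost when the shallower Hypox library was left out (adjusted p = 0.0503). Cyp2b9 fell in exons by 0.57 ± 0.14 (adjusted p = 0.0299), a call lost with any 1 library left out (adjusted p = 0.0623 to 0.133).

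Cyp2b10, the classical target of the constitutive androstane receptor, dipped at 90 min at a lower level. Its intronic level was 3.10 and 4.13 CPM in Hypox, 2.42 and 1.24 CPM at 30 min, 1.10 and 1.79 CPM at 90 min and 3.30 and 4.89 CPM at 240 min. It was called lower at 90 min (-1.29 ± 0.34, adjusted p = 0.0456) and higher at 240 min than at 90 min (1.45 ± 0.34, adjusted p = 0.021). The first call was lost with any 1 library left out (adjusted p = 0.0621 to 0.286) and the second without the deeper 90 min or either 240 min library (adjusted p up to 0.149). Cyp2b19 and Cyp2b23 had 4 and 0 exonic reads in all. The 250 bases before the start of Cyp2b9, at chr7:26173159-26173408 (+ strand), and of Cyp2b13, at chr7:26061245-26061494 (+ strand), are shown because both were called lower in introns at 90 min, from RefSeq in GRCm38.p6.
Cyp2b9: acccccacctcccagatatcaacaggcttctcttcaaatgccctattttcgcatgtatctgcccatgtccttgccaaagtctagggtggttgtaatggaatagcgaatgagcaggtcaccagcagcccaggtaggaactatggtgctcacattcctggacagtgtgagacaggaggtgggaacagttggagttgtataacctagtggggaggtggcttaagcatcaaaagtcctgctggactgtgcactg
Cyp2b13: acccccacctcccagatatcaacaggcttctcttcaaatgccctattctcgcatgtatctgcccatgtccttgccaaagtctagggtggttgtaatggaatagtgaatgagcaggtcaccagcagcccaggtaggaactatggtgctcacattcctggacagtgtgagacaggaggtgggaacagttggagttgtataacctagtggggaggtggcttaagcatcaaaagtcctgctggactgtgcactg
They were identical at 99.2% of 250 aligned bases and hold none of the 3 patterns.

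The 15 Cyp2c genes, all on chromosome 19, did not move as 1 group. Cyp2c29, the most abundant of them, had 213 and 233 CPM of intronic reads in Hypox, 197 and 115 CPM at 30 min, 67.4 and 109 CPM at 90 min and 59.0 and 82.7 CPM at 240 min. It was called lower at 90 min (-1.38 ± 0.29, adjusted p = 0.0155) and at 240 min (-1.67 ± 0.29, 3.19-fold, adjusted p = 0.00669). The first call was lost without either Hypox or the deeper 90 min library (adjusted p up to 0.126) and the second without the shallower Hypox or the deeper 240 min library (adjusted p up to 0.0763). Its exonic level was not called at any time, with log2 fold changes of 0.53 ± 0.19, 0.45 ± 0.19 and -0.13 ± 0.19.

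Cyp2c68 moved the other way. Its intronic level was 15.2 and 31 CPM in Hypox, 51.9 and 112 CPM at 30 min, 56.5 and 104 CPM at 90 min and 11.3 and 17.5 CPM at 240 min. All 4 libraries of the 2 early times lay above both Hypox libraries, and the 240 min libraries were back in their range or below. The rise passed at 90 min (1.82 ± 0.42, 3.52-fold, adjusted p = 0.0234) and missed at 30 min (1.81 ± 0.42, adjusted p = 0.051), and the call at 90 min was lost without the deeper Hypox or the shallower 90 min library (adjusted p up to 0.189). From 90 to 240 min it fell by 2.44 ± 0.42 (5.42-fold, adjusted p = 0.00453, but 0.0572 without the deeper 240 min library). The neighbours Cyp2c67 and Cyp2c40 had intronic log2 fold changes of 1.27 ± 0.38 and 1.63 ± 0.53 at 30 min and of 1.22 ± 0.38 and 1.25 ± 0.53 at 90 min without passing (adjusted p = 0.0829 to 0.202).

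**Figure D4:**
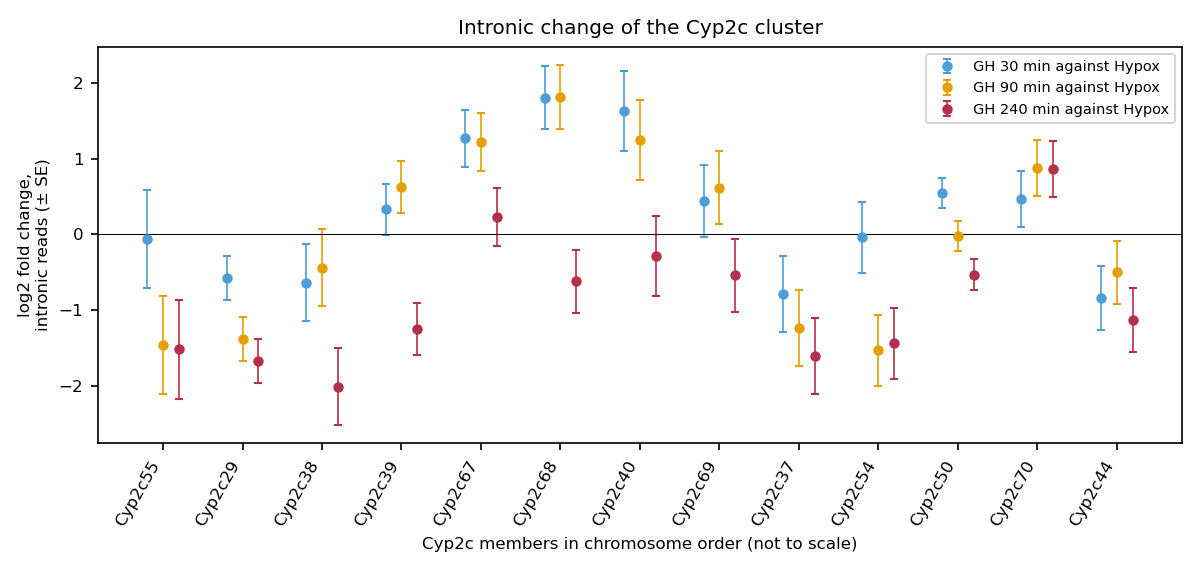
Log2 fold change of intronic reads (± limma's SE) of the 13 tested Cyp2c members at 30, 90 and 240 min against Hypox, in chromosome order and not to scale. The early points of the neighbouring Cyp2c67, Cyp2c68 and Cyp2c40 lie above 0, and those of Cyp2c29, Cyp2c38 and Cyp2c37 below.

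Cyp2c38 and the retinoic acid hydroxylase gene Cyp2c39 were called lower than Hypox in introns at 240 min and not earlier. Cyp2c38 had 7.01 and 8.61 CPM of intronic reads at 240 min against 31.3 and 32.1 CPM in Hypox (-2.01 ± 0.51, adjusted p = 0.0297), and Cyp2c39 had 10.5 and 15 CPM against 32.5 and 27.7 CPM (-1.25 ± 0.34, adjusted p = 0.0399). Both calls were lost with any 1 library left out (adjusted p = 0.091 to 0.177 and 0.0819 to 0.24). Between 90 and 240 min Cyp2c39 fell by 1.88 ± 0.34 (adjusted p = 0.00591, but 0.0668 without the deeper 240 min library), and the 90 min pools differed, at 29 and 74.3 CPM. The 90 min pools of Cyp2c38 lay on either side of Hypox, at 10.9 and 49.4 CPM. Its 30 min pools lay below Hypox, at 25.5 and 16.2 CPM, so the time of its fall is uncertain.

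Only 2 members rose in exons, both of the Cyp2c subfamily and both at 240 min. Cyp2c70 had 143 and 122.8 CPM in Hypox, 117 and 164 CPM at 30 min, 150 and 192 CPM at 90 min and 254 and 246 CPM at 240 min. Its log2 fold change at 240 min was 0.92 ± 0.18 (1.89-fold, adjusted p = 0.0102, but 0.0797 without the shallower Hypox library). Its intronic level, 329 and 508 CPM at 240 min against 304 and 166 CPM in Hypox, did not pass (0.86 ± 0.37, adjusted p = 0.16). Cyp2c67 had 34.2 and 38.1 CPM at 240 min against 24.8 and 24.6 CPM in Hypox (0.55 ± 0.13, adjusted p = 0.0287), a call lost without either Hypox library or the shallower 240 min library (adjusted p up to 0.13). Cyp2c50 was lower in exons at 240 min than at 90 min (-0.53 ± 0.12, adjusted p = 0.0374), where 5.24% of all genes were called, and this was lost without either 90 min library or the shallower 240 min library (adjusted p up to 0.167). Cyp2c44, Cyp2c54, Cyp2c37, Cyp2c55 and Cyp2c69 were not called in either kind of read, and Cyp2c65 and Cyp2c66 had 3 and 0 exonic reads.

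Of the Cyp2d genes, on chromosome 15, Cyp2d10 showed the clearest dip and return in introns. It had 5.98 and 5.54 CPM in Hypox, 4.30 and 4.69 CPM at 30 min, 2.60 and 3.05 CPM at 90 min and 7.16 and 8.47 CPM at 240 min. No 2 of these groups overlapped, with 90 min the lowest and 240 min the highest. It was lower at 90 min than in Hypox (-1.01 ± 0.18, adjusted p = 0.00708, lost without the deeper Hypox or the deeper 90 min library, adjusted p up to 0.0569) and higher at 240 min than at 90 min (1.44 ± 0.18, 2.71-fold, adjusted p = 0.000982), which held with each library left out. In exons Cyp2d40 was lower at 240 min, with 2.12 and 1.77 CPM against 3.99 and 4.50 CPM in Hypox (-1.09 ± 0.28, adjusted p = 0.0324), and Cyp2d13 was lower at 240 min than at 90 min, with 43.0 and 40.8 CPM against 55.4 and 60.5 CPM (-0.47 ± 0.11, adjusted p = 0.0338). Both were lost with any 1 library left out (adjusted p = 0.0674 to 0.162 and 0.0557 to 0.206). Cyp2d26, the most abundant Cyp2d gene, was not called (exonic -0.36 ± 0.12 at 240 min, adjusted p = 0.0755), nor was Cyp2d9, a testosterone 16-alpha-hydroxylase that is male-biased in intact mice (intronic -0.90 ± 0.24 at 90 min, adjusted p = 0.0503).

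Cyp2u1, a fatty acid hydroxylase that is male-biased in intact mice, behaved in introns like Cyp2d10. It had 2.65 and 2.08 CPM in Hypox, 1.28 and 0.848 CPM at 30 min, 0.580 and 0.776 CPM at 90 min and 3.12 and 4.21 CPM at 240 min. It was lower at 90 min (-1.67 ± 0.29, 3.17-fold, adjusted p = 0.00636, but 0.0542 without the deeper Hypox library) and rose by 2.27 ± 0.29 from 90 to 240 min (4.83-fold, adjusted p = 0.00107), which held with each library left out. In exons it was still lower at 240 min, with 3.53 and 6.86 CPM against 9.17 and 9.59 CPM in Hypox (-0.92 ± 0.26, adjusted p = 0.0446, lost without either Hypox or the deeper 240 min library, adjusted p up to 0.179).

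Among the remaining subfamilies 2 members were called. Cyp1a2, the caffeine demethylase of liver and an aryl hydrocarbon receptor target, had 0.611 and 0.239 CPM of intronic reads at 90 min against 1.98 and 3.02 CPM in Hypox, which are 20 and 4 reads against 71 and 96. Its log2 fold change was -2.38 ± 0.39 (5.20-fold lower, adjusted p = 0.00445, but 0.061 without the shallower Hypox library), and its exonic level of 99.1 and 104 CPM at 90 min against 97.8 and 109 CPM in Hypox was not called. Cyp2j9, an eicosanoid-forming enzyme, was lower in exons at 240 min, with 1.23 and 1.5 CPM against 3.91 and 2.80 CPM in Hypox (-1.23 ± 0.25, adjusted p = 0.014, lost without the deeper Hypox or the deeper 240 min library, adjusted p up to 0.096).

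Cyp2e1 was not called in exons or introns, at 1566 and 1562 CPM of exonic reads at 240 min against 1518 and 1367 CPM in Hypox (0.12 ± 0.15, adjusted p = 0.665). Cyp2j5, the epoxygenase of liver and kidney, had an exonic log2 fold change of -0.13 ± 0.20 at 240 min, Cyp2f2, which activates naphthalene, of -0.60 ± 0.42, Cyp2g1, an olfactory P450, of -1.33 ± 0.40, and Cyp2r1, a vitamin D 25-hydroxylase, of -0.54 ± 0.36, and none passed (adjusted p = 0.0598 to 0.718). Cyp1b1 was near absent at 0.0895 FPKM. The exonic log2 fold change at 240 min was -0.18 ± 0.45 for Cyp1a1, 0.15 ± 0.41 for Cyp1b1, -0.51 ± 0.40 for Cyp2d12, -0.04 ± 0.11 for Cyp2d22 and 0.20 ± 0.14 for Cyp2j6, none of them called in either kind of read. The 15 members not tested in exons had 0 to 50 exonic reads over all 8 libraries. Besides those of the Cyp2b, Cyp2c and Cyp3a subfamilies named above they were Cyp2d11, Cyp2d34, Cyp2j8, Cyp2j11, Cyp2j12, Cyp2j13, Cyp2s1, Cyp2t4 and Cyp2w1, of which Cyp2j8 was tested in introns and not called.

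Whether introns and exons of a gene moved unequally was tested directly, as the difference of the intronic and the exonic log2 change, a test added after both had been seen. At 30 min it called 2 of 39 members lower, where 1.56% of all genes were called and 0.748% lower, and these were Cyp3a11 (-2.93 ± 0.21, adjusted p = 3.65e-05) and Cyp2a5 (-3.17 ± 0.28, adjusted p = 0.000183). At 90 min it called 14 members, all lower, where 2.94% of all genes were called in either direction and 2.11% lower. With no filter on reads it called 3 members at 90 min and 1 at 240 min. At 240 min it called 6, of which 5 were lower and Cyp2u1 was higher (1.52 ± 0.33, adjusted p = 0.0385), where 1.97% of all genes were called, 1.47% lower and 0.504% higher. The calls of Cyp3a11 at all 3 times, of Cyp2a5 at 30 and 90 min and of Cyp3a59 at 90 and 240 min held with each library left out. The other 15 of these 22 calls did not, and the count at 90 min was 5 or 6 without any 1 library, whichever of the deeper and shallower Hypox and 90 min libraries was left out. At 30 min it was 5 without the deeper 30 min library, and at 240 min it was 2 without the shallower Hypox or the deeper 240 min library.

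Between 30 and 90 min limma called 0 members in exons, where 0% of all genes were called, and 0 in introns, where 0.0733% were. At an unadjusted p under 0.05 there were 3 members in exons and 14 in introns, and limma-voom called 0 in both. Without the shallower 30 min library 3 members were called in introns. The contrast of 240 with 90 min compares no Hypox level, though its variance and scaling came from the fit of all 8 libraries. From 90 to 240 min 3 members fell in exons, where 5.24% of all genes were called and 2.48% lower. In introns 9 were called, where 11.6% of all genes were, 5.57% higher and 5.99% lower. Of these, Cyp2a4, Cyp2b9, Cyp2b10, Cyp2d10 and Cyp2u1 rose and Cyp2c39, Cyp2c68, Cyp3a13 and Cyp3a25 fell. Cyp2a4 rose by 1.79 ± 0.34 (adjusted p = 0.008, lost without the deeper 90 min or the shallower 240 min library, adjusted p up to 0.0616). Cyp3a25 fell by 0.61 ± 0.14 in exons (adjusted p = 0.0339) and by 0.79 ± 0.23 in introns (adjusted p = 0.0475), and Cyp3a13 by 0.98 ± 0.26 in introns (adjusted p = 0.0348), and all 3 calls were lost with any 1 library left out. Without the deeper 240 min library 3 intronic calls were made in all and without the shallower one 4, and the exonic count was 0 without either 90 min or the shallower 240 min library.

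Grouped by what is known of them, the 5 targets of the receptors CAR and PXR (Cyp2b10, Cyp2c29, Cyp2c37, Cyp2c55 and Cyp3a11) had 1, 3 and 2 members lower in introns at 30, 90 and 240 min (1.02%, 4.3% and 6.23% of all genes were lower), with median log2 fold changes of -0.79, -1.38 and -1.61, while their exonic medians were 0.35, 0.19 and -0.13 at 30, 90 and 240 min. Of 8 female-biased genes, 6 were tested in introns, and 1, 3 and 2 of them were lower at 30, 90 and 240 min, against the same shares of all genes. The list did not move as 1 group. At 90 min the others tested, Cyp2c39, Cyp2c40 and Cyp2c69, had intronic group means above Hypox without being called. These were 0.964 against 0.542 FPKM, 0.0335 against 0.0137 FPKM and 0.0118 against 0.0067 FPKM. In exons 7 of the female-biased genes were tested, and Cyp2b9 and Cyp2b13 were lower at 240 min, where 5.53% of all genes were lower. Of the 2 male-biased genes, Cyp2u1 was called in both kinds of read, and Cyp2d9 in neither, though the difference of its intronic and exonic change passed at 90 min (-0.88 ± 0.21, adjusted p = 0.0494, lost with any 1 library left out, adjusted p = 0.104 to 0.305). Of the 3 aryl hydrocarbon receptor targets only Cyp1a2 had enough intronic reads to be tested, and it was called lower at 90 min, where 4.3% of all genes were lower. In exons all 3 were tested and 0 were called at 30, 90 or 240 min.

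Of the 13 genes that serve P450 enzymes, 12 were tested. In introns 1 was lower at 90 min, 1 higher and 1 lower at 240 min, and 2 rose between 90 and 240 min. The shares of all genes called in introns were 7.56%, 11.2% and 11.6%. In exons 1 was higher at 240 min and 1 rose between 90 and 240 min, where 11.2% and 5.24% of all genes were called. Por, the reductase, had exonic log2 fold changes of 0.55 ± 0.19, 0.48 ± 0.19 and 0.58 ± 0.19 at 30, 90 and 240 min (adjusted p = 0.566, 0.429 and 0.0742). Alas1, the first enzyme of heme synthesis, rose at 240 min in exons (2.12 ± 0.30, 4.36-fold, adjusted p = 0.0032) and in introns (1.27 ± 0.29, adjusted p = 0.0194), and in exons also between 90 and 240 min (1.45 ± 0.30, adjusted p = 0.024). Hmox1, which degrades heme, fell in introns at 240 min (-1.79 ± 0.33, adjusted p = 0.00831), and Ephx1, the epoxide hydrolase that takes up P450 products, at 90 min (-1.19 ± 0.24, adjusted p = 0.0126). In introns Cyb5b and Cyb5r3, of the cytochrome b5 system, rose between 90 and 240 min (0.71 ± 0.16 and 0.66 ± 0.17, adjusted p = 0.0162 and 0.0269).

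Several regulators of these genes moved over the same times. For partners, regulators and markers, single libraries were not left out. Nr1i3, which encodes CAR, fell in introns by 1.11 ± 0.23 at 90 min (adjusted p = 0.0151) and by 1.67 ± 0.23 at 240 min (adjusted p = 0.00286), and in exons by 1.45 ± 0.22 at 240 min (adjusted p = 0.00395). Nr1i2, which encodes PXR, fell in introns by 1.05 ± 0.19 at 90 min (adjusted p = 0.00706), stood at 0.00 ± 0.19 at 240 min, and was lower in exons by 0.56 ± 0.16 at 240 min (adjusted p = 0.0454). Hnf4a fell in introns by 0.91 ± 0.17 at 30 min (adjusted p = 0.0183) and by 0.83 ± 0.17 at 90 min (adjusted p = 0.0129), and then rose by 1.34 ± 0.17 between 90 and 240 min (adjusted p = 0.000982), with no exonic call (-0.34 ± 0.13, -0.54 ± 0.13 and -0.11 ± 0.13). Ahr, the receptor behind Cyp1a2, fell at 240 min in exons (-0.72 ± 0.14, adjusted p = 0.00996) and introns (-0.83 ± 0.17, adjusted p = 0.0126).

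Onecut1, which encodes HNF6, rose at every time in introns (2.98 ± 0.23, 3.52 ± 0.23 and 2.78 ± 0.23, adjusted p at most 0.000248) and in exons. Foxa1 rose in introns at all 3 times, by 1.80 ± 0.34, 2.15 ± 0.34 and 1.37 ± 0.34, and in exons at 90 and 240 min, and Foxa2 rose in exons at 90 and 240 min (0.72 ± 0.14 and 0.55 ± 0.14). Onecut2 rose in exons at 240 min (0.85 ± 0.20) and Esr1, the estrogen receptor, in exons at 240 min (1.22 ± 0.17) and in introns at 90 and 240 min. Bcl6, a repressor that opposes STAT5, fell at 240 min in exons (-2.76 ± 0.24) and introns (-2.33 ± 0.20), as did Stat5b (-0.88 ± 0.14 and -0.92 ± 0.20), Dbp (-0.71 ± 0.13 and -0.79 ± 0.18) and Tef (-0.62 ± 0.12 and -0.58 ± 0.15), the last 2 of them clock output factors. Dbp also fell in introns at 30 and 90 min. Hlf (-0.92 ± 0.21) and Ppara (-0.63 ± 0.17) fell in exons at 240 min, and both fell in introns at 90 min. Cebpb fell in exons at 90 min (-1.07 ± 0.19), Nr0b2 fell in introns at 90 min (-1.83 ± 0.41) and rose between 90 and 240 min, Nr3c1 fell in introns at 240 min (-0.58 ± 0.15), and Stat5a fell in introns between 90 and 240 min (-1.33 ± 0.28). Over the list of 31 regulators, 5 of 30 tested rose and 9 fell in exons at 240 min, where 5.71% of all genes rose and 5.53% fell, and their median log2 fold change was -0.14.

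Intronic reads of some zonal hepatocyte markers were lower over the same times, while of the general hepatocyte markers only Tat was called at 30 and 90 min. Of the 6 general ones, Tat alone was lower in introns at 30 and 90 min, and 1 was higher and 2 lower at 240 min, with medians of -0.09, -0.40 and -0.02. At 240 min 11.2% of all genes were called in introns. Between 90 and 240 min 3 of the general markers rose and 1 fell in introns, where 11.6% of all genes were called. Of 8 periportal markers, which include no P450 gene, 4 were lower in introns at 30 min, 5 at 90 min and 1 at 240 min, against 1.02%, 4.3% and 6.23% of all genes, with medians of -0.89, -1.78 and -0.36. Of 8 pericentral markers 1, 4 and 3 were lower, with medians of -0.65, -0.97 and -0.60. In exons the periportal markers summed to 2448 to 2736 CPM at 240 min against 2750 to 3102 CPM in Hypox, and the pericentral ones to 562 to 639 CPM against 472 to 542 CPM. Although the pericentral sum was higher, the median exonic log2 fold change of these markers was -0.1. Of them 1 was called higher and 2 lower, where 5.71% of all genes were higher and 5.53% lower. The cholangiocyte markers were higher at 240 min, at 14.5 to 22.9 CPM against 7.18 to 9.90 CPM in Hypox, the sinusoidal endothelial ones lower, at 104 to 114 CPM against 151 to 157 CPM, and the Kupffer cell ones stood at 31.1 to 48.3 CPM against 47.8 to 61.6 CPM, stellate cell ones at 97.7 to 100.2 CPM against 112 to 113 CPM. Neutrophil markers were at 7.32 to 11.3 CPM at 90 min against 4.77 to 6.13 CPM in Hypox, and lymphocyte markers summed to at most 2.14 CPM in any library. The part of these shifts in the changes of the members was not tested.

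Members with near-identical sequence can share reads, and no label or file header says how reads matching several genes were treated. Among the 56 members with a protein-coding transcript in GENCODE vM21, Cyp2a4 and Cyp2a5 were identical at 98.5% of the coding bases, Cyp2c40 and Cyp2c68 at 98.1%, Cyp3a25 and Cyp3a59 at 97.5%, and Cyp2b9 and Cyp2b13 at 92.7%. The share of 50-base windows of the coding sequence found unchanged in another member was 36.6% for Cyp2a5, 30.3% for Cyp3a25, 45.6% for Cyp2c68, 54.8% for Cyp2c67, 15.4% for Cyp3a11, 12.3% for Cyp2b9 and 24% for Cyp2b13. It was 0% for Cyp2c70, Cyp3a13, Cyp2u1, Cyp2j9 and Cyp2e1 among others, 13 members in all. It was 74.7% for Cyp2c40, 57.5% for Cyp2c69, 40.3% for Cyp2d10, 38.1% for Cyp2a4 and 32.3% for Cyp3a59, and the exonic values of members with such shared stretches are uncertain. For introns this share was not computed.

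By the authors' own test more members were called. The authors' deposited table calls 1, 3 and 12 of the 58 members changed in the gene body at 30, 90 and 240 min at an adjusted p under 0.05, where 0.434%, 1.6% and 5.32% of all 24197 genes are called. In introns it calls 9, 21 and 16 members, where 1.85%, 5.2% and 6.04% of all genes are called, and 7, 18 and 16 of these are lower, against 0.967%, 3.09% and 3.62% of all genes. For Cyp3a11 in introns the authors' deposited table gives an 8.66-fold fall at 240 min (adjusted p = 8.55e-35). The authors' deposited table also calls Cyp2c68 higher at 30 min in introns (3.58-fold, adjusted p = 0.000554) and in the gene body at 90 min (1.65-fold, adjusted p = 0.019), where limma did not. In the gene body at 90 min it calls Cyp2u1 (2.04-fold, adjusted p = 2.05e-05) and Cyp2a4 (2.19-fold, adjusted p = 0.0232) lower, where limma called neither. It calls Cyp3a44 lower in introns at 90 and 240 min, a gene of 23 intronic reads over the 8 libraries, and Cyp2f2, Cyp2g1 and Cyp2a22 lower in the gene body at 240 min, which limma did not.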

How the data were processed

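Liver RNA of 8 libraries was sequenced after partial depletion of ribosomal RNA with a strand-specific kit, per the labels' protocols. The authors deposited 1 table in build mm9 with the mean FPKM of the 2 libraries of a group over gene bodies and over introns, a ratio for each time over Hypox, and an adjusted p-value for it, per the file headers. The intronic FPKM is per length of introns. The submitters' processing notes name TopHat2, featureCounts and edgeR, with no versions. How multiply mapping reads were counted is not stated in them.

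Whole reads were recovered from the deposited mean FPKM, since each follows from whole reads of both libraries, their totals and the gene length, given to 10 decimals for gene bodies and 12 for introns. All 18359 genes with a gene body value and all 17098 with an intronic value gave whole reads within 1.02 times the rounding error of the last decimal, except that 15 genes needed 20 times. With the totals of all libraries moved by 1000 reads at once, 0 of 1000 genes gave whole reads in both exons and introns. The arithmetic does not tie a library to its pool number.

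Reads were divided by the total, scaled by a median of ratios (genes averaging 50 reads or more), and limma 3.58.1 (R 4.3.3) with a trended variance was applied to log2(CPM + 0.1) of all 8 libraries, with 4 residual degrees of freedom. The filter of 10 reads in 2 or more libraries left, for the two-sided tests, 13171 genes in exons and 12271 in introns. A fold change on this scale understates that of genes with few reads. The fits were tested on simulated data. Alternatives were pseudocount, filter, scaling, limma-voom, groups fitted alone, and each library left out. Named are all members called in exons or introns, the most abundant of each subfamily, that with the largest change at 240 min, those at the ends of a range, and partners and regulators that were called. The members and the gene lists were chosen with earlier results of these data known. Columns of other samples numbered 0. Sequences came from RefSeq tables (GRCm38.p6), in which 50 of 58 members had a promoter, and GENCODE vM21, and coding sequences were aligned with Biopython 1.88.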

Additional observations from a re-analysis of the deposited data

Results flagged for a closer look

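Between 90 and 240 min the level itself was tested, so that the changes at the 2 times against the shared Hypox libraries are compared directly. In intronic reads, the log2 change from 90 to 240 min was 2.27 for Cyp2u1, 1.79 for Cyp2a4, 1.45 for Cyp2b10, 1.44 for Cyp2d10 and 1.42 for Cyp2b9, all higher at 240 min. It was -2.44 for Cyp2c68, -1.88 for Cyp2c39, -0.98 for Cyp3a13 and -0.79 for Cyp3a25, all lower at 240 min. In exonic reads it was -0.61 for Cyp3a25, -0.53 for Cyp2c50 and -0.47 for Cyp2d13. Each passed limma's test at an adjusted p under 0.05.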

How the results depend on the processing

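No call of a member changed its direction under any alternative run. Of 69 calls, 22 held with each of the 4 compared libraries left out, 47 were lost with at least 1 of them left out, and 20 were lost with any of them left out. Of the 12 exonic calls 1 held, of the 35 intronic ones 14, and of the 22 on the difference of both 7. Of the 47 exonic and intronic calls, 13 were lost with no filter on reads, 7 with the library totals as the only scaling, 3 with the 2 groups fitted alone, 2 with limma-voom, 1 with at least 50 reads in 2 libraries and 0 with a pseudocount of 1 CPM. Of the 22 calls on the difference, 16 were lost with no filter.

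The exonic count from 90 to 240 min was 1 with no filter and 1 with the totals as the only scaling, against 3. The exonic count at 90 min was 1 with the groups fitted alone, against 0. The intronic count at 30 min was 5 with a pseudocount of 1 CPM, 6 with the totals as the only scaling and 5 with the exonic scaling factors (added after seeing the data), against 3. The count on the difference at 30 min was 6 with a pseudocount of 1 CPM, 4 with at least 50 reads and 4 with the groups fitted alone, against 2, and with no filter it was 3 at 90 min, against 14, and 1 at 240 min, against 6. The cause was not tested.

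With 1 library left out, the exonic counts ranged from 2 to 8 at 240 min, from 0 to 4 from 90 to 240 min, and stayed at 0 otherwise. The intronic counts ranged from 3 to 9 at 30 min, 9 to 13 at 90 min, 3 to 7 at 240 min, 0 to 3 from 30 to 90 min and 3 to 7 from 90 to 240 min. Those on the difference ranged from 2 to 5 at 30 min, 5 to 6 at 90 min and 2 to 6 at 240 min. A group left with 1 library is assumed to vary like the others. No paired analysis was possible because the recovered libraries carry no pool number. Members under 10 reads in 2 libraries could not be tested at this depth.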
